A study of Mus musculus with 94 samples.

Results

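The mesothelial genes are 6 of the 20411 gene symbols counted in both tissues. They are Msln, Upk3b, Upk1b, Wt1, Lrrn4 and Krt19, a given list of markers of the mesothelium, and they were taken by symbol from the counts of the epididymal (eWAT) and the inguinal (iWAT) white fat of 47 male C57BL/6JBomTac mice, 94 poly(A) RNA-seq libraries in all. All mice ate a low-fat diet until 10 weeks of age. Obese mice (n = 5) were then fed a high-fat diet during 18 weeks. Regression mice had the same 18 weeks of high-fat food and went back to the low-fat diet for 2, 6 or 12 weeks (n = 6 at each time), and lean mice of the same age stayed on the low-fat diet throughout and were taken at 0, 2, 6 and 12 weeks after the obese time point (n = 6 at each time). Both depots came from each mouse, whole snap-frozen tissue was used, and most mice shared a cage with others.

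The mesothelium is the single layer of flat cells that lines the body cavity and covers the organs within it. Epididymal fat hangs in the abdominal cavity and has such a covering, whereas inguinal fat lies under the skin and has none. Mesothelial cells carry both epithelial features, among them keratins and a brush of surface glycoproteins, and mesenchymal features, among them the transcription factor WT1, and they secrete the fluid that lets organs slide past each other. In a bulk library the RNA of this thin layer is diluted by that of adipocytes, stromal cells and immune cells, and fewer mesothelial cells cannot be told apart from less RNA per cell.

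Of the members, Msln encodes mesothelin, a surface glycoprotein held by a lipid anchor. Upk3b and Upk1b encode uroplakins, a family named for the membrane plaques of the bladder lining, of which Upk1b is a tetraspanin. Lrrn4 encodes a membrane protein with leucine-rich repeats, Wt1 a zinc finger transcription factor of the gonad, the kidney and the mesothelium, and Krt19 an acidic keratin of simple epithelia. In GENCODE M21, on the mm10 build, all 6 are protein-coding and no other annotated gene overlaps any of them. Msln lies on chromosome 17 from 25748613 to 25754378 (minus strand), Upk3b on chromosome 5 from 136038496 to 136046487 (plus), Upk1b on chromosome 16 from 38773184 to 38800328 (minus), Wt1 on chromosome 2 from 105126529 to 105173616 (plus), Lrrn4 on chromosome 2 from 132868305 to 132880891 (minus) and Krt19 on chromosome 11 from 100140810 to 100148665 (minus).

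The promoters of Upk3b and Lrrn4, the pair of members with the highest read levels in eWAT and with closely matched levels from library to library, are shown from RefSeq (GRCm38.p6), whose table held 2 of the 6 members. Each runs from 250 bases before the start of the gene to 50 bases after it, at chr5:136038246-136038545 on the plus strand for Upk3b and at chr2:132880813-132881112 on the minus strand for Lrrn4. Capitals mark GGAATG on either strand, the core of the motif bound by TEAD transcription factors.
Upk3b: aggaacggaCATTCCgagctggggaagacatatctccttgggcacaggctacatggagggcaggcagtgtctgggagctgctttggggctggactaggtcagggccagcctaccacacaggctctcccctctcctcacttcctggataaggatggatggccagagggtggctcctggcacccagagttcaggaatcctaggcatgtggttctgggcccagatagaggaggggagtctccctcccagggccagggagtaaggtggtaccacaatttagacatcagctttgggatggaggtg
Lrrn4: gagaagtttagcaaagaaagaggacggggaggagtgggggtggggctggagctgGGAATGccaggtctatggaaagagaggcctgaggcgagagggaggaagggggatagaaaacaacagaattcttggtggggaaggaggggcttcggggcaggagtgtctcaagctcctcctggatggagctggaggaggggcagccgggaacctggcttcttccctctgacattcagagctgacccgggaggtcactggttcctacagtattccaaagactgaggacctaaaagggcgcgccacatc
Each held the motif at 1 place, and 14.7% of the 32851 promoters of this length in the table held it at least once. Neither window held TATAAA (13.6% of promoters on either strand), CCAAT (37.4%), GGGCGG (35.7%) or GCGNGGGCG, a core shared by the EGR and WT1 zinc fingers (5.55%, and it can overlap GGGCGG only in part). These matches describe the letters in the windows and are no evidence of binding.

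The eWAT libraries held a median of 8.53 M counts (range 1.32 to 25.9 M) and the iWAT libraries 9.65 M (range 6.27 to 34.3 M). The eWAT library of 1.32 M is replicate 2 of the regression mice at 2 weeks. Every library carried the RNA of fat: 8 adipocyte genes, Adipoq and Plin1 among them, summed to 12697 CPM (counts per 1000000 of the scaled library) or more in eWAT and 12829 CPM or more in iWAT. Genes of the ducts that lie beside the epididymal pad varied between eWAT libraries. The genes of motile cilia, which line the efferent ducts, summed to over 100 CPM in 20 of the 47 libraries, and genes of the epididymis did so in 4, 22 libraries in all. Of those 22 none was a regression library of 6 weeks, where the ciliary sum ran from 10.1 to 39.8 CPM, and 5 of the 6 lean libraries of 12 weeks were among them. Urothelial genes outside the list, Upk1a, Upk2, Upk3a and Krt20, summed to at most 3.13 CPM in any eWAT library and 2.62 CPM in any iWAT library, with Upk2 and Upk3a at a median of 0 in both depots.

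The first comparison set the depots side by side in lean mice. All 6 members had a higher level in eWAT. Upk3b had 32620 counts in the 24 lean eWAT libraries and 12 counts in the 24 lean iWAT libraries of the same mice, with 17 of the 24 iWAT libraries at 0. That is 157 CPM in eWAT and 0.0550 CPM in iWAT, 2861-fold higher in eWAT (exact 95% interval 1638 to 5538). This interval and those of the other pooled ratios below cover counting error only. They pool the reads of 24 mice and leave out the spread between mice, and reads without molecular identifiers are not independent molecules. Upk3b, Wt1, Upk1b and Msln had too few counts in iWAT to pass the count filter there and entered a test over both depots only through their level in eWAT, so they are described by counts and ratios and not by a test.

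Wt1 had 5297 counts in lean eWAT and 4 in lean iWAT, where 20 of 24 libraries had none, a ratio of 1394 (544 to 5117). Upk1b had 5402 counts in lean eWAT and 7 in lean iWAT, a ratio of 812 (393.9 to 2021). Msln had 3084 counts in lean eWAT and 27 in lean iWAT, a ratio of 120 (82.5 to 183). Msln had the lowest CPM of the 6 members in lean eWAT and the most counts of these 4 in lean iWAT.

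Lrrn4 and Krt19 behaved differently, with counts in every lean iWAT library as well, though Krt19 was low there. Lrrn4 averaged 58.1 ± 14.4 CPM in lean eWAT and 5.06 ± 1.73 CPM in lean iWAT (SD, n = 24 each), and no iWAT library was at 0. The pooled ratio was 11.3 (10.7 to 12.1), and the log2 fold change fitted with mouse as a block was 3.43 ± 0.13 (SE, edgeR adjusted p = 3.63e-25). Krt19 averaged 37.7 ± 15.7 CPM in lean eWAT and 1.50 ± 0.57 CPM in lean iWAT (SD, n = 24 each), a ratio of 25.9 (23.2 to 29.1) and a log2 fold change of 4.53 ± 0.16 (edgeR adjusted p = 3.67e-26). The depots did not overlap for any member over all 47 mice. The lowest eWAT library had 2.38 times the CPM of the highest iWAT library for Lrrn4 and 2.09 times for Krt19. For the other members, which were at or near 0 in iWAT, it had 11.7 to 104 times. How large a share of all genes had no such overlap was not counted.

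Of the members, 2 passed the count filter in both depots, Lrrn4 and Krt19, and both were called higher in eWAT, where 59.3% of 14749 genes differed between the depots and 28.1% were higher in eWAT. Of 15 other genes used as mesothelial markers, 6 passed the filter in both depots, and 4 of these were called higher in eWAT and none lower. The 4 were Rspo1, a secreted enhancer of WNT signalling (4.71 ± 0.12, adjusted p = 1.25e-32), Gpm6a, a membrane proteolipid (3.84 ± 0.14, adjusted p = 1.55e-26), Aldh1a2, which makes retinoic acid (2.72 ± 0.14, adjusted p = 7.12e-21), and Pdpn, a mucin-type membrane glycoprotein (0.31 ± 0.13, adjusted p = 0.0354), all from edgeR. Bnc1, a zinc finger protein of keratinocytes and germ cells, had a median of 17.4 CPM in eWAT and 0 in iWAT over all 47 libraries of each. The keratin pair of simple epithelia had medians of 15.3 CPM for Krt8 and 9.32 CPM for Krt18 in eWAT and of 0 for both in iWAT. The keratins are also made by duct epithelium, whose genes were present in the eWAT libraries named above, and the part of that RNA in their levels was not tested.

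**Figure D1:**
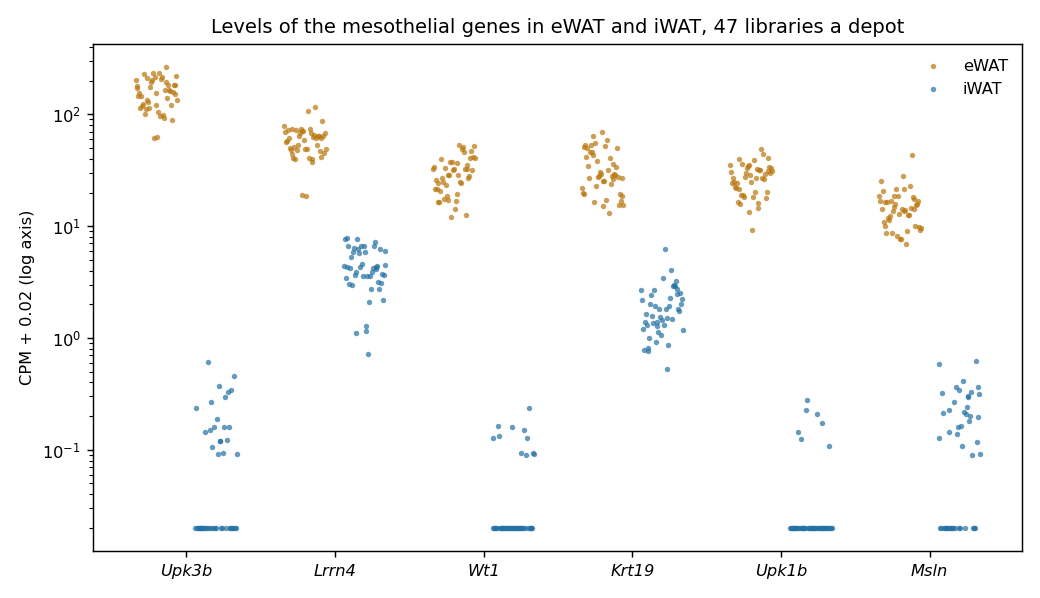
CPM of each mesothelial gene in every library, on a log axis after adding 0.02 so that libraries without a count can be drawn (the row of points at the bottom). Each point is a library, 47 from eWAT on the left of each pair and 47 from iWAT on the right. The depots do not overlap for any of these genes, and the share of all genes without overlap was not counted. Lrrn4 and Krt19 alone are above 0 in every iWAT library.

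Within lean eWAT, the members could be ordered per length of annotated exons. Upk3b came first with 44.2 ± 12.9 CPM per kilobase (SD, n = 24), beyond the spread of the next. Krt19 (20.3 ± 8.44), Lrrn4 (15.6 ± 3.86) and Upk1b (12.5 ± 3.49) followed and lay within each other's spread. Msln (4.77 ± 1.50) and Wt1 (4.18 ± 1.24) were lowest and did not differ beyond theirs.

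The main comparison asked whether obesity and its regression moved these genes in eWAT. No member was called in obesity, at 2 weeks or at 6 weeks, and at 12 weeks Wt1 was, a call that most alternative fits did not keep. Group means of Upk3b stayed between 138 and 172 CPM over the 8 groups, and those of Lrrn4 between 51.1 and 66.2 CPM. Upk1b means lay between 22.7 and 33.2 CPM, and Msln means between 12.5 and 19.7 CPM. The widest ranges were those of Krt19, 18.7 to 42.8 CPM, and Wt1, 23.0 to 42.4 CPM.

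In obesity, Upk3b had 63.1, 105, 234, 96.7 and 208 CPM in the 5 obese mice, against a lowest of 114, a median of 164 and a highest of 204 CPM in lean mice. Lrrn4 had 18.5, 49.2, 108, 40.9 and 73.8 CPM in the same obese mice, against 57.0, 65.3 and 78.5 CPM at the lowest, median and highest in lean mice. For both genes, obese replicate 1 was the lowest of the 11 libraries and obese replicate 3 the highest, so the obese group spanned the lean one. The same 2 obese mice were lowest and highest for Upk1b (9.15 and 39.4 CPM) and Msln (7.73 and 28.4 CPM), and for Wt1 (14.3 and 37.1 CPM). The log2 fold changes of the 6 members ran from -0.27 for Upk1b (95% interval -0.84 to 0.30) to 0.05 for Krt19 (-0.64 to 0.73). None of the 6 was called by edgeR, DESeq2 or limma, and none had an unadjusted p under 0.05, where 23.4% of 14323 genes were called by edgeR.

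At 2 weeks the picture was similar, with 0 of 6 members called by edgeR, DESeq2 or limma and none at an unadjusted p under 0.05, against 35.7% of all genes. Msln had the largest positive estimate (0.40 ± 0.30, SE, edgeR adjusted p = 0.323). It averaged 19.7 ± 12.1 CPM in regression mice and 14.1 ± 3.40 CPM in lean mice (SD, n = 6 each), and the regression mean included a library at 43.7 CPM, the shallow replicate 2, where the value rests on 63 counts. Upk3b ranged from 89.5 to 182 CPM around a median of 152 CPM in regression mice, and from 115 to 210 CPM around 154 CPM in lean mice. The groups overlapped for every member.

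At 6 weeks, 0 of 6 members were called by edgeR, DESeq2 or limma, against 7.58% of all genes. Krt19 had an unadjusted p under 0.05, and its adjusted p was 0.104 (edgeR). Krt19 had a lowest of 15.3, a median of 17.6 and a highest of 27.0 CPM in regression mice, against 15.2, 28.7 and 70.2 CPM in lean mice, a log2 fold change of -0.85 ± 0.33. All 6 regression mice lay under the lean median and none under the lowest lean mouse. The estimate was -0.47 without lean replicate 5, the library with the highest Krt19 and with 5786 CPM of epididymal genes. General epithelium genes summed to 4.92 to 14.8 CPM in the regression mice and 5.07 to 462.2 CPM in the lean mice, and the estimate was -0.44 (edgeR adjusted p = 0.244) with the duct and epididymis signals as terms in the fit.

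Wt1 leaned the other way at 6 weeks. It had 31.9, 41.5 and 51.6 CPM at the lowest, median and highest in regression mice, against 12.1, 32.1 and 37.7 CPM in lean mice. The log2 fold change was 0.50 ± 0.25 and was not called (edgeR adjusted p = 0.201), though 5 of 6 regression mice lay above the highest lean mouse.

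At 12 weeks 1 of 6 members was called, Wt1, a share near the 15.3% of all genes called. Its values in regression mice were 53.2, 24.8, 24.3, 48.9, 51.1 and 45.9 CPM, against 24.5, 16.3, 20.5, 39.9, 26.8 and 24.7 CPM in lean mice. Of the regression mice, 4 lay above the highest lean mouse, while replicates 2 and 3 lay near the lean median. Wt1 averaged 41.4 ± 13.3 CPM in regression mice and 25.5 ± 7.98 CPM in lean mice (SD, n = 6 each), a log2 fold change of 0.70 ± 0.25 (edgeR adjusted p = 0.0481), just past the threshold. DESeq2 also called it and limma with a block for runs of mouse numbers did not (adjusted p = 0.0547). The call was lost in 6 of 9 alternative fits and in 9 of the 12 fits that left out a mouse. Markers of other cells moved with this comparison: macrophage genes were called higher for 7 of 8 (median log2 fold change 2.49), fibroblast progenitor genes for 3 of 8 (0.30) and B-cell genes for 3 of 8 (1.83), whose part in the Wt1 value was not tested. Ciliary genes summed to a median of 12.0 CPM in regression mice and 253 CPM in lean mice. With the duct and epididymis signals as terms the estimate was 0.29 (edgeR adjusted p = 0.474), and without the libraries over 100 CPM of those genes, which leaves 5 regression mice and 1 lean mouse, it was 0.16 (adjusted p = 0.858, with the lone lean library assumed to vary like the others).

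The other 5 members at 12 weeks had estimates from -0.57 for Krt19 to 0.35 for Lrrn4, none called. Upk3b had a lowest of 92.0, a median of 180 and a highest of 265 CPM in regression mice, against 100.2, 122 and 228 CPM in lean mice. Krt19 had 13.1, 29.9 and 41.1 CPM in regression mice, against 26.8, 46.2 and 53.3 CPM in lean mice, and its estimate of -0.57 ± 0.33 (edgeR adjusted p = 0.215) became 0.08 with the duct and epididymis signals as terms.

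**Figure D2:**
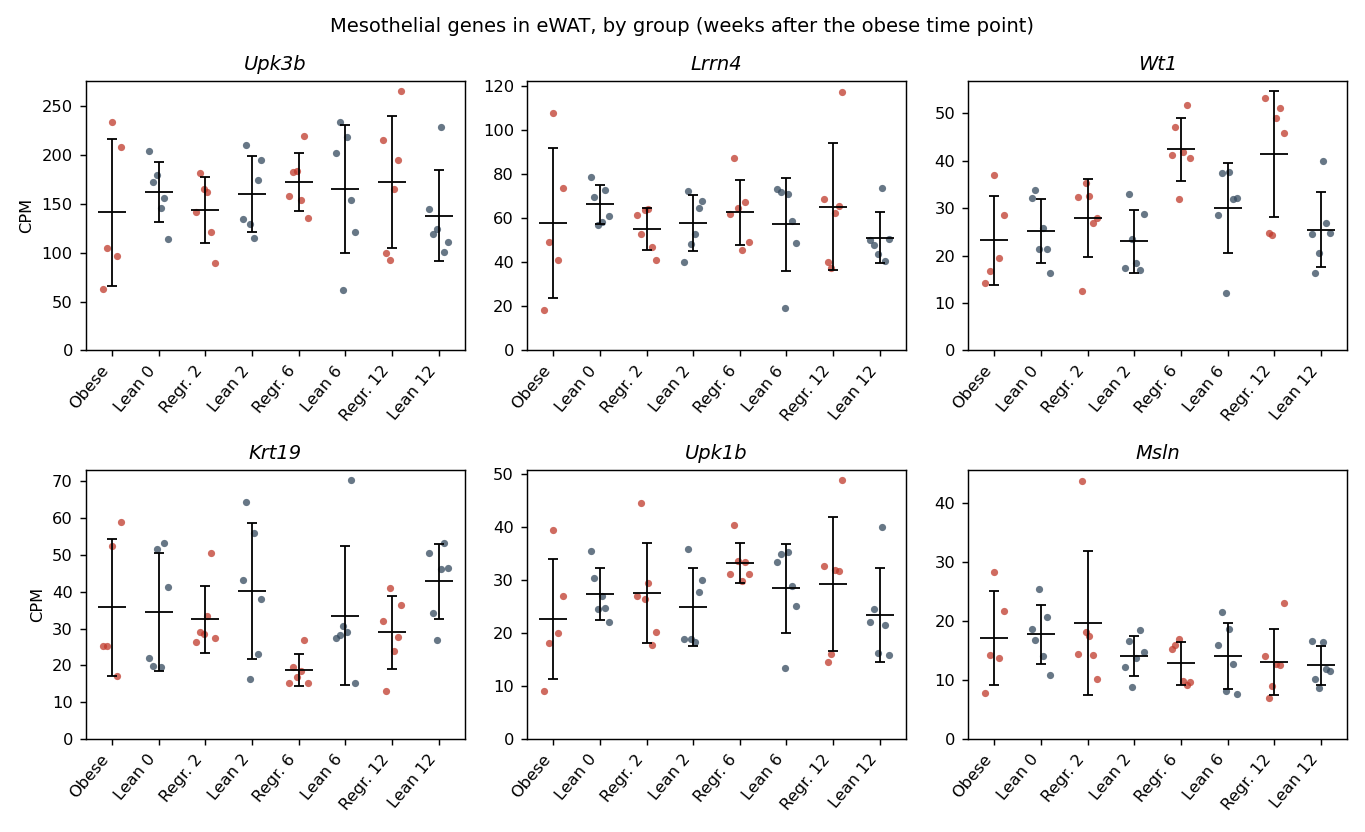
CPM of the 6 mesothelial genes in eWAT. Each point is a library (red, obese or regression mice; dark blue, lean mice), the long bar is the group mean and the whiskers are 1 SD (n = 5 obese, n = 6 in every other group). The groups overlap in every pair and for every gene; the regression groups of 6 and 12 weeks average 42.4 and 41.4 CPM of Wt1, above the other groups, and Krt19 is lowest in the regression group of 6 weeks.

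Changes of the obese-to-lean difference over time gave no call in eWAT. For 2, 6 and 12 weeks minus obesity, 0 of 6 members were called each time by edgeR, DESeq2 or limma, against 5.82%, 1.21% and 2.32% of all genes, and the one unadjusted p under 0.05 was that of Wt1 at 12 weeks minus obesity (0.83 ± 0.36, edgeR adjusted p = 0.274). The difference at 12 weeks and that in obesity share no library. Lean mice of 12 weeks and of 0 weeks, which differ in age, also gave 0 of 6 calls by edgeR, DESeq2 or limma and none at an unadjusted p under 0.05, against 0.105% of all genes.

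Of the other mesothelial markers, 13 were tested in eWAT. In obesity 1 of 13 rose, Pdpn, which stromal cells and some macrophages also make (0.50 ± 0.18, edgeR adjusted p = 0.0416). Of all genes, 23.4% were called in obesity and 35.7% at 2 weeks. At 2 weeks 3 of 13 rose: Cldn15, a tight junction claudin (0.55 ± 0.15, adjusted p = 0.00355), Aldh1a2 (0.51 ± 0.19, adjusted p = 0.0308), and Pdpn (0.50 ± 0.18, adjusted p = 0.0240), all from edgeR. None of the 13 was called at 6 or 12 weeks, where 7.58% and 15.3% of all genes were. Macrophage markers moved in the same comparisons, with 7 of 8 called higher in obesity and at each later time (median log2 fold change 2.00 in obesity and 2.53 at 2 weeks), as did fibroblast progenitor genes, with 4 of 8 called higher in obesity and 4 higher and 1 lower at 2 weeks (medians 0.45 and 0.53), and their part in the changes of Pdpn, Aldh1a2 and Cldn15 was not tested.

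In iWAT, Msln, Upk3b, Upk1b and Wt1 did not pass the filter on low counts, and 2 of the 6 members, Lrrn4 and Krt19, were tested. Over all 47 iWAT libraries Upk3b had 44 counts, with 26 libraries at 0 and at most 5 counts in any. Msln had 77 counts with 18 libraries at 0, Wt1 had 16 with 36 at 0, and Upk1b had 12 with 40 at 0. An exact two-sided permutation test of their CPM between obese or regression mice and lean mice could be run 15 times, with 1 comparison free of any count. The lowest exact p was 0.0152, for Msln at 12 weeks with 11 counts in regression mice and 1 in lean mice, and it did not pass adjustment (adjusted p = 0.228). No difference in these 4 genes in iWAT was detected, and 77 counts or fewer a gene over all 47 libraries limit what could be.

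Lrrn4 fell in obese iWAT. It had 1.25, 1.14, 3.54, 0.692 and 2.07 CPM in obese mice, against 4.36, 7.62, 3.41, 7.78, 4.31 and 6.69 CPM in lean mice. All 5 obese mice lay under the lean median and 4 lay under every lean mouse; obese replicate 3 reached into the lean range. Lrrn4 averaged 1.74 ± 1.12 CPM in obese mice (SD, n = 5) and 5.70 ± 1.90 CPM in lean mice (SD, n = 6), a log2 fold change of -1.71 ± 0.36 (edgeR adjusted p = 0.000393). It was 1 of the 2 members tested that was called, where 30.2% of 13899 genes were. The call held in each of 8 alternative fits (log2 fold changes of -1.89 to -1.63) and without any one mouse (-2.14 to -1.52).

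Markers of other cells moved with this comparison in iWAT. Macrophage genes were called higher for 8 of 8 and fibroblast progenitor genes for 7 of 8, and adipocyte genes were called lower for 4 of 8 and higher for 1. Genes of skin and hair summed to 51.6 to 102 CPM in obese mice and 33.7 to 50.1 CPM in lean mice. Of the 5 of these genes tested, 1 was called higher by edgeR, where 30.2% of all genes were called. Their median log2 fold change was 0.04. Much of the sum was Sbsn, with a median of 40.6 CPM over all iWAT libraries against 52.1 CPM for the list. With skin and B-cell signals as terms in the fit the Lrrn4 estimate was -1.71 (edgeR adjusted p = 0.000282), and the part of the other cell types was not tested. Skeletal muscle genes, which were not a term, summed to a median of 684 CPM (range 7.78 to 44932 CPM) over the 47 iWAT libraries. They ran from 26.8 to 3206 CPM in obese mice and from 12.3 to 6663 CPM in lean mice of that time.

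After the return to the low-fat diet, Lrrn4 in iWAT was not called at any time. Of all genes, 18.8% were called at 2 weeks, 1.04% at 6 weeks and 0.0288% at 12 weeks. With so few calls at 6 and 12 weeks, the lack of one there says little about Lrrn4. Regression mice of 2 weeks averaged 4.14 ± 1.22 CPM and their lean mice 4.69 ± 2.33 CPM (SD, n = 6 each), a log2 fold change of -0.18 ± 0.33 (edgeR adjusted p = 0.737). At 6 weeks the averages were 3.87 ± 1.30 CPM in regression mice and 5.25 ± 1.29 CPM in lean mice, with an estimate of -0.44 ± 0.32 (edgeR adjusted p = 0.506). At 12 weeks they were 4.71 ± 1.83 CPM in regression mice and 4.62 ± 1.47 CPM in lean mice, with an estimate of 0.03 ± 0.33 (edgeR adjusted p = 0.980). The 3 regression groups of iWAT each averaged at least 3.87 CPM, and the highest obese mouse had 3.54 CPM. Single mice overlapped: the lowest regression mouse had 2.71 CPM at 2 weeks, 2.18 CPM at 6 weeks and 2.72 CPM at 12 weeks. Under the median of the lean mice of their time lay 5 of 6 regression mice at 2 weeks, 5 at 6 weeks and 4 at 12 weeks. Under every lean mouse lay 0, 2 and 1 of them, and above every lean mouse 0, 0 and 2.

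The change itself was tested against the difference in obesity. At 12 weeks minus obesity it was 1.74 ± 0.48 (edgeR adjusted p = 0.0263), called, 1 of 2 members against 4.85% of all genes. At 2 weeks minus obesity it was 1.53 ± 0.48 and missed the threshold (adjusted p = 0.0570; 0 of 2 called, against 4% of all genes), while DESeq2 called it (adjusted p = 0.0307). At 6 weeks minus obesity it was 1.28 ± 0.48 (edgeR adjusted p = 0.157; 0 of 2 called by edgeR, DESeq2 or limma, against 1.38%). These 3 tests share the obese and lean mice of the first time point. For the call at 12 weeks, leaving out each of 23 mice in turn kept it in 18 fits; it was lost without obese replicates 1, 2 or 4, lean replicate 4 of the first time point or regression replicate 6 (adjusted p up to 0.0668), and under limma with a block for runs of mouse numbers (1.88, adjusted p = 0.0855).

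Krt19 in iWAT was low and was not called. In obesity it had 3.42, 1.28, 6.28, 1.78 and 1.48 CPM in obese mice, against a lowest of 0.753, a median of 1.50 and a highest of 2.68 CPM in lean mice, an estimate of 0.81 ± 0.37 (edgeR adjusted p = 0.0952). The estimate was 0.29 without obese replicate 3, the highest of the group. At 2 weeks it had a lowest of 2.47, a median of 2.91 and a highest of 3.23 CPM in regression mice, against 0.904, 1.46 and 2.66 CPM in lean mice. Of the regression mice 5 lay above the highest lean mouse, and the estimate was 0.81 ± 0.36 (edgeR adjusted p = 0.109; 0.0417 in a fit on these 2 groups alone). Of the 2 members tested, 0 were called at 2 weeks by edgeR, DESeq2 or limma (18.8% of all genes), with Krt19 at an unadjusted p under 0.05. At 6 weeks (1.04% of all genes), at 12 weeks (0.0288%) and between lean mice of 12 and 0 weeks (0.496%), 0 of 2 were called by any of these tools and none had an unadjusted p under 0.05.

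**Figure D3:**
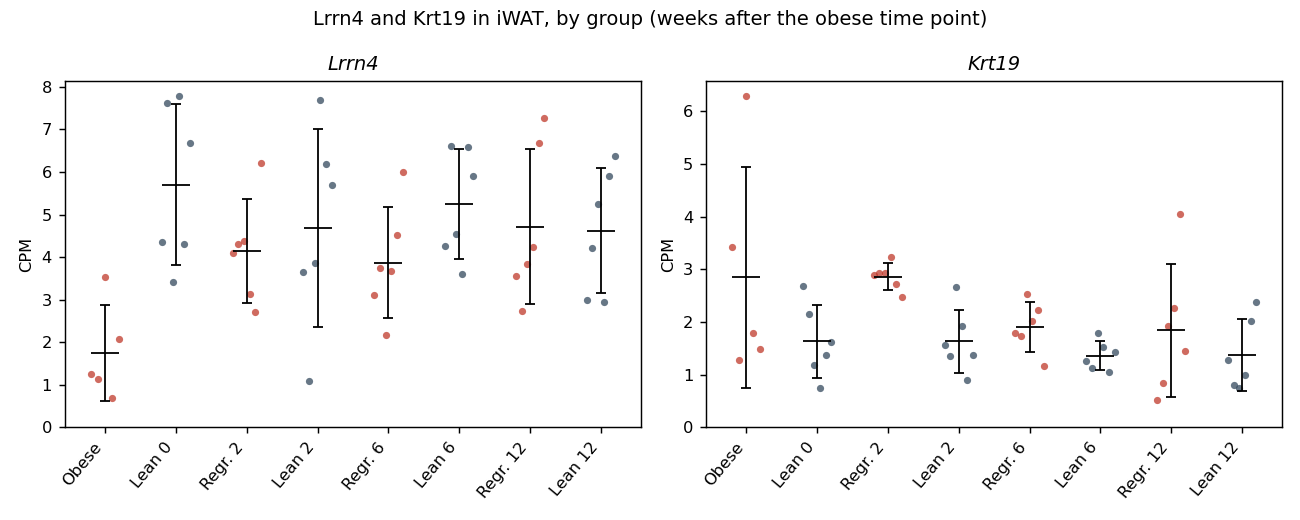
CPM of Lrrn4 (left) and Krt19 (right) in iWAT, the members with enough counts there. Points are libraries (red, obese or regression mice; dark blue, lean mice), long bars are means and whiskers 1 SD (n = 5 obese, n = 6 elsewhere); 4 of 5 obese mice lie under every lean mouse of the same time for Lrrn4, and the regression groups average 3.87 to 4.71 CPM.

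Of the 15 other mesothelial markers, 6 had enough counts in iWAT, and 3 of these rose in obese mice: Aldh1a2 (1.86 ± 0.33, adjusted p = 4.87e-05), Dmkn, a secreted protein of stratified epithelia (1.17 ± 0.31, adjusted p = 0.00403), and Pdpn (0.90 ± 0.30, adjusted p = 0.0212), and none fell. At 2 weeks 3 of 6 rose, Dmkn (1.30 ± 0.30, adjusted p = 0.00232), Pdpn (1.02 ± 0.29, adjusted p = 0.0121) and Cldn15 (0.98 ± 0.18, adjusted p = 0.000165), and none was called at 6 or 12 weeks, all by edgeR. Of all genes, 30.2% were called in obesity, 18.8% at 2 weeks, 1.04% at 6 weeks and 0.0288% at 12 weeks. At 6 and 12 weeks the absence of calls among 6 markers is therefore no result about them. Aldh1a2 was lower at 12 weeks minus obesity (-1.76 ± 0.46, edgeR adjusted p = 0.0175), 1 of 6 against 4.85% of all genes. Cldn15 was higher at 2 weeks minus obesity (0.99 ± 0.26, edgeR adjusted p = 0.0215), 1 of 6 against 4% of all genes. Bnc1 and Pkhd1l1, which tracked the members in eWAT, were at medians of 0 and 0.313 CPM over the 47 iWAT libraries. Dmkn had medians of 3.67 CPM in iWAT and 2.38 CPM in eWAT, and Cldn15 of 67.5 and 66.4 CPM. Aldh1a2 and Pdpn were called higher in lean eWAT. In iWAT, 8 of 8 macrophage genes were called higher in obesity and 0 of 8 at 2 weeks. Fibroblast progenitor genes were called higher for 7 of 8 and 1 of 8. Their part in the rises of Aldh1a2, Dmkn, Pdpn and Cldn15 was not tested, nor was an origin in mesothelial cells.

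Whether the depots responded differently was tested with mouse as a block. This could be measured for Lrrn4 and Krt19, the members past the count filter in both depots. Neither was called in any of the 4 comparisons (0 of 2 each, with or without the block; background 1.32% in obesity, 8.42% at 2 weeks, 0.597% at 6 weeks and 0.0542% at 12 weeks). Lrrn4 came nearest: the obese-to-lean difference was 1.46 ± 0.42 higher in eWAT than in iWAT on the log2 scale (95% interval 0.62 to 2.29, edgeR adjusted p = 0.0662). The fall of Lrrn4 in obese iWAT is therefore not shown to be particular to that depot. For Krt19 the differences were -0.69, -1.10, -1.26 and -0.92 in obesity and at 2, 6 and 12 weeks, with adjusted p of 0.111 or more. An unadjusted p under 0.05 was found for Lrrn4 in obesity and for Krt19 at 2 and at 6 weeks, and for neither at 12 weeks. Of the other mesothelial markers, Aldh1a2 in obesity was lower in eWAT than in iWAT by this measure (-1.56 ± 0.39, adjusted p = 0.0288).

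**Figure D4:**
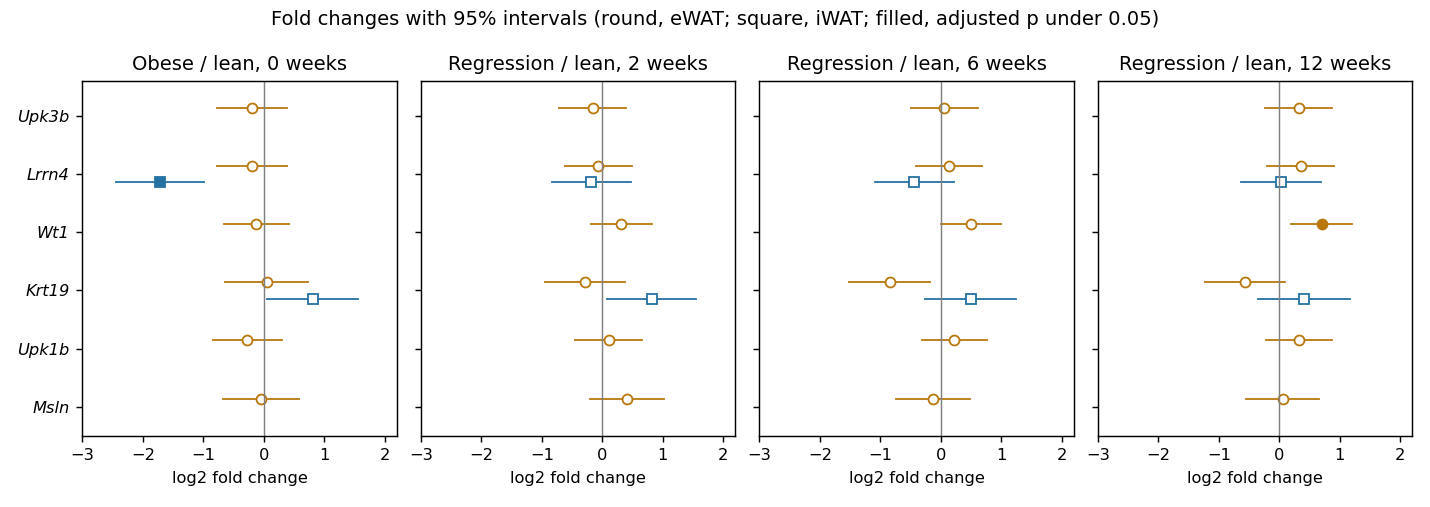
Log2 fold changes of obese or regression mice over lean mice at each time (x axis), by gene (y axis), with 95% intervals from edgeR. Round marks are eWAT and square marks iWAT, where 2 of the 6 genes had enough counts; filled marks have an adjusted p under 0.05, which are Lrrn4 in obese iWAT (-1.71) and Wt1 in eWAT at 12 weeks (0.70).

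The members varied together from mouse to mouse in eWAT, apart from the groups. Deviations of log2 CPM from the group mean were compared over the 47 libraries, each member against the mean of the other 5. Upk3b followed the others most closely (r = 0.913, rho = 0.892; permutation within groups, adjusted p = 2.4e-05 for r and 3e-05 for rho over 12 relations, from the smallest p that 100000 permutations can give). Lrrn4 (r = 0.879, rho = 0.839), Upk1b (r = 0.854, rho = 0.802) and Msln (r = 0.736, rho = 0.765) had the same adjusted p-values. Wt1 followed less tightly (r = 0.588, rho = 0.574; permutation adjusted p = 0.00078 for r and 0.00062 for rho). Without the 2 libraries farthest from the median, r was 0.894, 0.851, 0.814, 0.705 and 0.485 in this order of genes. It held within replicates 1 to 3 and within replicates 4 to 6, which come from separate runs of mouse numbers, with r from 0.525 to 0.937. Depth and composition of a library are shared by all its genes.

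Krt19 stood apart. Against the mean of the other 5 members it had r = 0.286 and rho = 0.267 (permutation adjusted p = 0.157 for r and 0.131 for rho), and its r with single members ran from 0.165 with Wt1 to 0.359 with Msln, while the 10 pairs among the other 5 ran from 0.292 to 0.906 with a median of 0.752. It followed instead the mean of 7 general epithelium genes, such as Epcam and Cldn3 (r = 0.737, rho = 0.673; permutation adjusted p = 2.4e-05 for r and 4.8e-05 for rho; r = 0.690 without the 2 farthest libraries), with which the other 5 members had r from -0.272 to -0.103. That relation was added after the data were seen. Within the 25 libraries under 100 CPM of duct and epididymis genes, however, Krt19 had r = 0.687 with the other members and 0.491 with the epithelium genes, and within the 22 libraries over it the values were 0.448 and 0.722. Wt1 showed the reverse, with r = 0.302 against the other members in the 25 libraries and 0.820 in the 22. In the 25 libraries Msln had r = 0.625, under that of Krt19, and Upk1b, Lrrn4 and Upk3b had 0.862, 0.873 and 0.945. The shallow replicate 2 of the regression mice of 2 weeks had 12.5 CPM of Wt1 from 18 counts and 43.7 CPM of Msln from 63 counts. No r was taken without this library alone.

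**Figure D5:**
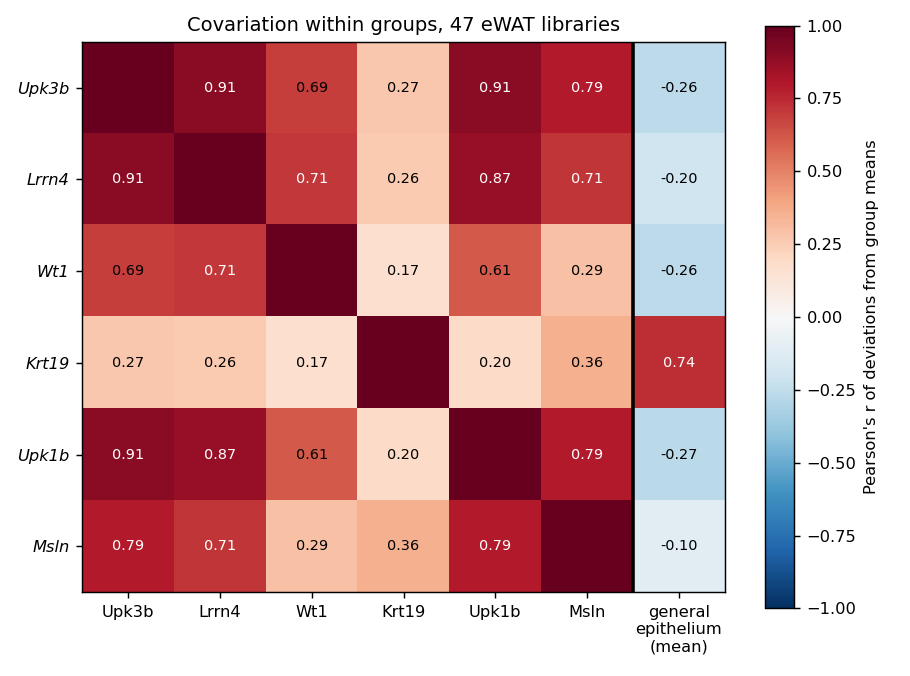
Pearson's r between the mesothelial genes, and between each and the mean of 7 general epithelium genes (last column), for deviations of log2 CPM from the group mean over 47 eWAT libraries. Upk3b, Lrrn4 and Upk1b form the tightest block (0.87 to 0.91), and Krt19 has 0.17 to 0.36 with the other members and 0.74 with the epithelium genes.

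The genes most like the members were those with the highest r to the mean standardised deviation of all 6 over the same 47 libraries, given as a description. Outside the list they were Pkhd1l1 (0.924), Spock2 (0.911), Fmod (0.910), Bnc1 (0.902), Gpm6a (0.897), Wnt2b (0.890), Igfbp6 (0.888), Krt7 (0.881), Kcnab1 (0.875) and AI661453 (0.872). Spock2 and Fmod encode proteoglycans of the extracellular matrix, Wnt2b a secreted WNT ligand, and Igfbp6 a binding protein of insulin-like growth factors. Of these 10, Pkhd1l1, Bnc1, Gpm6a and Krt7 were already among the 13 other mesothelial markers, whose median r was 0.776. The median was -0.04 over all 14323 genes, 0.10 over 8 fibroblast progenitor genes, 0.12 over 8 adipocyte genes, -0.07 over 8 macrophage genes and -0.25 over 10 ciliary genes. Among the other markers Krt8 (-0.06), Krt18 (-0.06) and Dmkn (-0.35) did not follow the members, and Rspo1 (0.205) and Cldn15 (0.432) did so weakly.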

How the data were processed

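The deposited files hold raw counts, whole numbers for each gene symbol, in one table a depot. Per the submitters' processing notes, mm10 was the build, and the tools were STAR 2.4.1c, DESeq2 1.38.3 and R 4.2.2. How reads were assigned to genes, from which annotation and with which strand setting is not given in the sources here. The members and all marker lists were chosen with earlier results of these data known. Libraries were grouped by their labels, and no pair of replicates agreed within sampling noise (chi-square per degree of freedom of 3.63 or more in eWAT and 7.11 or more in iWAT, from genes with 20 counts or more in the pair). The labels call them biological replicates; mice shared cages.

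Each depot was fitted over its 47 libraries with edgeR 4.0.16 (R 4.3.3; TMM, default count filter, quasi-likelihood F-test, two-sided) and p-values were Benjamini-Hochberg adjusted over all genes tested, with calls at an adjusted p under 0.05. Errors of log2 fold changes are standard errors of the fit. The depots were compared over 94 libraries with mouse as a block, since both came from each mouse. CPM used TMM-scaled totals, and log2 CPM a prior count of 2. Replicate numbers did not pair libraries within a depot. The fits were run on simulated data, for the comparisons in obesity only. For the fit over both depots these held a part of the genes, with a set spread and a set mouse effect. The outcomes are not given here and lend no weight to the results above. Alternatives used DESeq2 1.42.0 and limma 3.58.1. Named genes were all 6 members, the leading 3 called among the other mesothelial markers per comparison, and the 10 genes most like the members in eWAT; Pdpn, Bnc1, Krt8 and Krt18 in the depot comparison were named after their values were seen; exon lengths came from GENCODE M21. The authors' own test tables were not used.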

Additional observations from a re-analysis of the deposited data

Results flagged for a closer look

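Among 64 sets of member and group, 10 held a library whose gap to the nearest other was large for the range of its group. Chance gives about 1 in 20 for independent sets of normally distributed values. The members vary together in the same libraries, so the 10 sets are not shown to be an excess. Of the 10, 3 were lean replicate 4 of 12 weeks in eWAT, with 228 CPM of Upk3b (next 145), 40.0 CPM of Upk1b (next 24.5) and 73.6 CPM of Lrrn4 (next 50.5). The shallow replicate 2 of the regression mice of 2 weeks in eWAT was far apart in opposite directions, with 43.7 CPM of Msln (next 18.1; 63 counts) and 12.5 CPM of Wt1 (next 26.9; 18 counts). Replicate 5 stood apart for Krt19 at 70.2 CPM in lean mice of 6 weeks (next 30.7), at 50.4 CPM in regression mice of 2 weeks (next 33.5) and at 27.0 CPM in regression mice of 6 weeks (next 19.5). Wt1 was at 12.1 CPM in lean replicate 3 of 6 weeks (next 28.5), and Upk1b at 40.4 CPM in regression replicate 2 of 6 weeks (next 33.5).

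In iWAT, the Lrrn4 difference between regression and lean mice at 12 weeks was 1.74 higher on the log2 scale than that between obese and lean mice, a difference between times tested in the fit (edgeR adjusted p = 0.0263).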

How the results depend on the processing

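The count of called members was taken again under each alternative and without each mouse. Of these counts, 375 stayed within 1.5 times the one reported and 32 did not. Most comparisons reported 0 members, and a 0 that stayed 0 is among the 375. This tally therefore says little about how firm the calls are, which are given one by one below. The Wt1 call in eWAT at 12 weeks (1 member) went to 0 with no count filter (0.72, adjusted p = 0.0502), with the replicate number as a block (0.70, adjusted p = 0.0577; the numbers do not pair the libraries), with only the compared groups in the fit (0.71, adjusted p = 0.0729), with limma and a random block for runs of mouse numbers, with neighbouring tissue signals as terms and without libraries over 100 CPM of duct or epididymis genes, the last chosen after seeing the data; leaving out each mouse gave 0 to 1 members, with the call lost in 9 of 12 fits, and Wt1 values of 0.61 to 0.88 (adjusted p 0.0128 to 0.128). In iWAT, leaving out each mouse gave 1 to 2 members in obesity (the second is Krt19), 0 to 1 for 12 weeks minus obesity and 0 to 1 for 2 weeks minus obesity. The count for 12 weeks minus obesity was 0 with limma. The count for 2 weeks minus obesity was 1 rather than 0 with the replicate block (Lrrn4 1.50, adjusted p = 0.0459), with a term for the series of mouse numbers (1.53, adjusted p = 0.0403) and with DESeq2 (1.52, adjusted p = 0.0307). At 2 weeks in iWAT it was 1 with only the compared groups in the fit. The replicate block changed no other count. Lrrn4 and Krt19 stayed higher in lean eWAT than in lean iWAT without the mouse block, with DESeq2 size factors and with no filter (log2 fold changes of 3.43 to 3.44 and 4.53 to 4.59). DESeq2 and leaving out each mouse were not run in the fit over both depots. Few counts limit Msln, Upk3b, Upk1b and Wt1 in iWAT. The causes of these changes were not tested.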

Other observations

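The genes whose within-group deviations over the 47 iWAT libraries were most like those of Lrrn4 there, a list made after seeing its fall in obesity, included Mettl7a1 (r = 0.768), Slc1a3, a glutamate transporter (0.757), and Gpx3, a secreted glutathione peroxidase (0.715). None of them was among the 10 genes most like the members in eWAT. These are values across libraries that share depth and composition.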
